A study of Rattus norvegicus with 6 samples.

Results

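The genes described here encode feedback inhibitors of mitogen-activated protein (MAP) kinase signalling, namely dual-specificity phosphatases (Dusp) and members of the Sprouty (Spry) and Spred families. They were taken by gene name from a list of 10 that was chosen with earlier results of these data known. Of these, 9 (Dusp2, Dusp4, Dusp5, Dusp6, Dusp10, Dusp16, Spry1, Spry2 and Spred1) were found among the 23139 genes of the count tables, while Dusp1 was not analysed here. Microglia, the resident macrophages of the brain, had been prepared from cortices of Wistar rats at postnatal day 1 by shaking them off cultures and enriching them with magnetic beads against CD11b/c. From the day after isolation, all cultures received 100 ng/mL lipopolysaccharide (LPS), which comes from the outer membrane of Gram-negative bacteria. The LPS group was given the solvent DMSO in addition and the LPS/siponimod group 50 µM siponimod, a modulator of sphingosine-1-phosphate receptors, with 3 biological replicates per group. Messenger RNA was sequenced to between 38080379 and 46643859 counts per library. Cells without LPS were not analysed here. All differences given are therefore those between LPS with siponimod and LPS with DMSO, and the stimulation time of the sequenced cultures is not given separately in the sources used here.

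MAP kinases such as ERK, JNK and p38 are switched on by phosphorylation, in microglia for example downstream of Toll-like receptors and of the receptor for colony-stimulating factor. The phosphatases of the Dusp family remove this phosphorylation, and several of their genes are transcribed in response to the kinases they switch off, which closes a negative feedback loop. Sprouty and Spred proteins act further upstream and hold back the Ras-Raf-ERK branch that receptor tyrosine kinases activate. In macrophages such loops are known to limit the length and strength of the response to LPS.

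The libraries held the markers of microglia throughout. The summed level of 11 microglia markers was 8510, 7010 and 4760 CPM (counts scaled to a common library size) in LPS replicates 1, 2 and 3 and 3790, 4500 and 2720 CPM in LPS/siponimod replicates 1, 2 and 3. Csf1r, the receptor for colony-stimulating factor 1, had the highest CPM of them summed over the 6 libraries, although Cd68 exceeded it in LPS/siponimod replicates 1 and 3 and Itgam in both libraries numbered 3, and no gene of this list was at 0 in all libraries. Of these 11 markers, 3 were downregulated, namely Itgam, Aif1 and Cx3cr1 (quasi-likelihood test of edgeR), and 0 were upregulated. That is 27.3%, next to 25.3% of all genes tested that changed in either direction and 11.7% that were downregulated. Both libraries numbered 3 had the highest sums of oligodendrocyte and neuron markers of their group, and some astrocyte markers were highest there too. Of the oligodendrocyte lineage, 8 markers summed to 5.34, 5.37 and 36 CPM with LPS and to 11.4, 10.3 and 22.6 CPM with LPS/siponimod, with Mbp as the most abundant gene except in LPS replicate 3. Among them Olig1, a factor of that lineage, was chosen after its values were seen. It had 1, 5 and 515 counts with LPS and 2, 3 and 17 counts with LPS/siponimod. Mbp, by contrast, was lowest of the LPS group in LPS replicate 3 (4.02, 4.18 and 2.26 CPM). With LPS/siponimod it was highest in replicate 3 (10.1, 8.89 and 15.9 CPM). The sum of 6 neuronal markers was 1.67, 1.06 and 11.3 CPM with LPS and 6.39, 9.27 and 17 CPM with LPS/siponimod, Tubb3 being the most abundant. Snap25 was lowest of its group in LPS/siponimod replicate 3 (1.97 CPM). The 8 astrocyte markers, led by Slc1a3, summed to 42.5, 21.1 and 24.3 against 27.6, 26.9 and 59.1 CPM. Sox9 (0, 5 and 99 against 3, 1 and 59 counts) and Slc1a2 (5, 3 and 82 against 4, 4 and 22 counts) were highest in the libraries numbered 3. Gfap had 1, 2 and 88 against 0, 0 and 1 counts. Aldh1l1 was lowest of the LPS group in LPS replicate 3 (1.59, 0.545 and 0.188 CPM). Endothelial markers (4 genes, led by Cdh5 except in LPS replicate 2, where Pecam1 was higher) summed to 156, 202 and 81.9 CPM with LPS and 37.4, 79.9 and 26.2 CPM with LPS/siponimod, where Kdr was at 0 in every library. Fibroblast and pericyte markers (6 genes, led by Dcn in LPS/siponimod replicates 1 and 3 and by Col1a1 in the other libraries) reached at most 11.9 CPM and markers of T cells and neutrophils (5 genes, led by Cd8a, with Cd3e and Mpo at 0 in every library) at most 3.08 CPM in any library. Of the markers of cells other than microglia, Mbp, Snap25 of neurons and Dcn were upregulated in the same test. In bulk samples, a change in the share of a cell type and a change of RNA per cell cannot be told apart, and the part of these other transcripts in the results below was not tested.

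Of the 9 genes, 3 passed the test. Spry2 was about 10.0-fold and Dusp10 4.84-fold higher with LPS/siponimod than with LPS, whereas Dusp2 was 3.68-fold lower. The remaining 6 genes did not pass the thresholds, which were an adjusted p no higher than 0.05 (quasi-likelihood test of edgeR, fitted over all 11977 genes with enough counts) and a fold change of at least 1.5. Thus 2 of the 9 genes were upregulated and 1 was downregulated, that is 33.3%, next to 25.3% of all genes tested (13.6% upregulated and 11.7% downregulated). Their median log2 fold change (FC) was 1.11, which is the value of the scarce Spry1, next to -0.021 for all genes. This median was 0.63 without LPS/siponimod replicate 3 and 1.87 without LPS replicate 3. The groups did not overlap for 5 of the 9 genes, next to 49.3% of all genes, with higher values under LPS/siponimod for 4 genes (25.3% of all genes) and lower values for 1 gene (24% of all genes). With libraries of the same number treated as pairs (the replicate number as a block), 5 of the 9 genes were upregulated and 1 was downregulated, where 34% of all genes were called. Without LPS replicate 2, LPS/siponimod replicate 1 or LPS/siponimod replicate 3, 0 of the 9 genes were called, where 5.16%, 6.22% and 8.5% of all genes were. All 9 genes passed the filter on low counts.

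**Figure D1:**
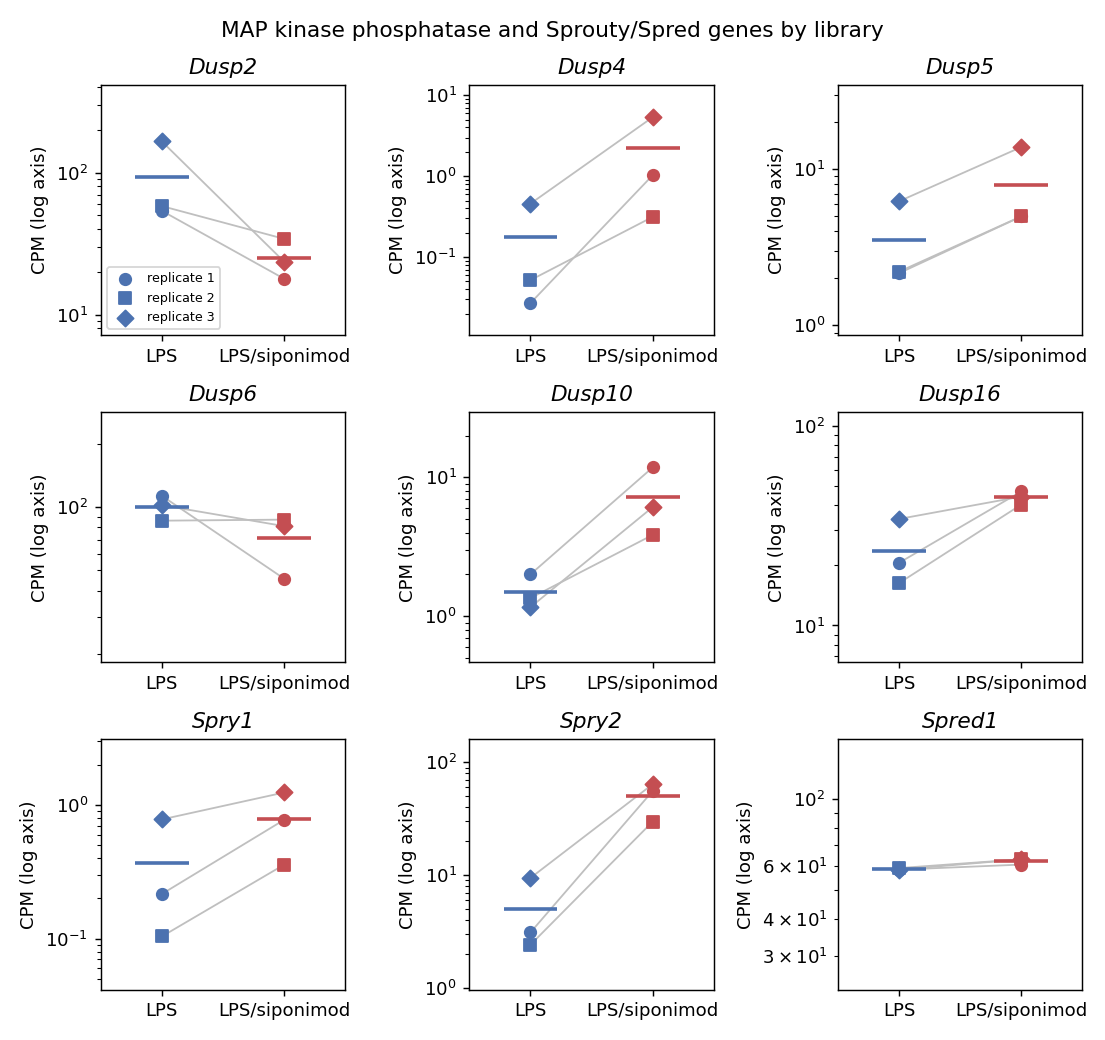
CPM (log axes with a range of their own in each panel) of the 9 genes in the 3 LPS and the 3 LPS/siponimod libraries, where symbols stand for replicate numbers, grey lines join libraries with the same number and horizontal bars are group means. Spry2 and Dusp10 lie higher and Dusp2 lower in each LPS/siponimod library than in any LPS library, and Spred1 stays between 58.2 and 63 CPM.

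Among the phosphatases of the nucleus, Dusp2, which encodes an inducible enzyme of immune cells that acts on ERK and p38, had 53.9, 58.2 and 166 CPM in LPS replicates 1, 2 and 3 and 17.9, 34.2 and 23.6 CPM in LPS/siponimod replicates 1, 2 and 3. LPS replicate 3 was far above the other LPS libraries, and even the highest LPS/siponimod value was below the lowest LPS value. Dusp2 was downregulated (log2 FC -1.88 ± 0.51, given with its standard error or SE, adjusted p = 0.0388 in the quasi-likelihood test of edgeR), with differences of -1.59, -0.76 and -2.81 on the log2 scale between libraries of the same number. Without LPS replicate 3 the log2 FC was -1.15 and the adjusted p by the same test 0.03, and without any other single library the adjusted p was between 0.052 and 0.145.

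Dusp5, whose product is an ERK phosphatase of the nucleus, went the other way in every pair. It had 2.16, 2.21 and 6.24 CPM with LPS and 4.99, 5 and 13.9 CPM with LPS/siponimod. Both libraries numbered 3 were well above the others of their group, so that the groups overlapped, but within pairs of the same number the differences were 1.19, 1.16 and 1.15 on the log2 scale. Without regard to the numbers Dusp5 was not a DEG (differentially expressed gene; log2 FC 1.17 ± 0.61 SE, adjusted p = 0.19 in the quasi-likelihood test). With the replicate number as a block it was (log2 FC 1.18, standard error 0.16, adjusted p = 0.00882). Without the block, leaving out single libraries moved the log2 FC between 0.50 (without LPS/siponimod replicate 3) and 1.87 (without LPS replicate 3).

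Dusp4, an inducible nuclear phosphatase as well, was scarce. It had 1, 2 and 17 counts with LPS and 48, 14 and 220 counts with LPS/siponimod, corresponding to 0.027, 0.0519 and 0.457 CPM against 1.03, 0.314 and 5.36 CPM. Values spread about 17-fold within each group, with the libraries numbered 3 on top, and the groups overlapped. The log2 FC of 3.62 therefore carried an SE of 1.40 and missed the threshold (adjusted p = 0.097 in the quasi-likelihood test), while with the replicate block it was 3.66 with a standard error of 0.50 (adjusted p = 0.00868). Without the block it was also upregulated by DESeq2 (adjusted p = 0.0161) and the likelihood ratio test (0.0311), and in the quasi-likelihood test without LPS replicate 3 (0.0491). Leaving out single libraries moved it between 1.90 (without LPS/siponimod replicate 3) and 5.73 (without LPS replicate 3).

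Dusp6, the cytoplasmic phosphatase directed at ERK, was not a DEG. Its level was 113, 86.1 and 102 CPM with LPS and 45.6, 87.1 and 81.1 CPM with LPS/siponimod. The difference rested mainly on LPS/siponimod replicate 1, and the pair numbered 2 differed by only 0.02 on the log2 scale. The log2 FC was -0.50 (95% interval from -1.13 to 0.14, quasi-likelihood adjusted p = 0.194), and the replicate block did not change this (-0.54, adjusted p = 0.181).

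Both phosphatases directed at the stress-activated kinases JNK and p38 had higher values with LPS/siponimod in each pair. Dusp10 rose from 2, 1.35 and 1.16 CPM to 11.8, 3.85 and 6.11 CPM. The lowest LPS/siponimod library (3.85 CPM) thus was above the highest LPS library (2 CPM), and LPS/siponimod replicate 1 was the highest. The log2 FC was 2.27 (standard error 0.48, quasi-likelihood adjusted p = 0.0203), and the adjusted p ranged from 0.0162 to 0.0885 with single libraries left out, being above 0.05 without LPS replicate 2 (0.0885), without LPS/siponimod replicate 1 (0.0683) and without LPS/siponimod replicate 3 (0.0567). Dusp16 had 20.6, 16.3 and 34.2 CPM with LPS and 47, 40.4 and 44.3 CPM with LPS/siponimod. The groups did not overlap, and the LPS/siponimod libraries lay closer together than the LPS libraries, of which replicate 3 was the highest. It missed the threshold without the block (log2 FC 0.89 ± 0.28 SE, adjusted p = 0.056 in the quasi-likelihood test) and passed it with the block (0.96, standard error 0.22, adjusted p = 0.0274). It also passed without the block by limma-voom (adjusted p = 0.0395), by DESeq2 (0.0158) and by the likelihood ratio test (0.0203), and in the quasi-likelihood test without LPS replicate 3 (0.0118).

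Spry2, which encodes an inhibitor of receptor tyrosine kinase signalling, showed the clearest difference, with the smallest adjusted p of the 9 genes. It had 115, 93 and 351 counts with LPS and 2596, 1335 and 2637 counts with LPS/siponimod, or 3.1, 2.41 and 9.44 CPM against 55.9, 29.9 and 64.2 CPM. LPS replicate 3 was the highest of its group and still far below every LPS/siponimod library. Spry2 was upregulated (log2 FC 3.33 ± 0.61 SE, adjusted p = 0.0145 in the quasi-likelihood test), by 4.15, 3.60 and 2.76 on the log2 scale in the pairs numbered 1, 2 and 3. The adjusted p was 0.0569 without LPS replicate 2, 0.0616 without LPS/siponimod replicate 1 and 0.0507 without LPS/siponimod replicate 3, and the log2 FC rose to 4.18 without LPS replicate 3.

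Spry1, the related inhibitor, was scarce as well. Only 8, 4 and 29 counts were found with LPS and 36, 16 and 51 counts with LPS/siponimod. The groups overlapped, although each pair had more with LPS/siponimod (differences of 1.64, 1.41 and 0.64 on the log2 scale). Its log2 FC was 1.11 ± 0.83 SE, with an adjusted p of 0.341 in the quasi-likelihood test that became 0.0678 with the replicate block. The log2 FC was 2.30 without LPS replicate 3 and 0.63 without LPS/siponimod replicate 3. Spred1, whose product brings neurofibromin to the membrane to inactivate Ras, varied least of all 9 genes. It had 58.2, 58.9 and 58.2 CPM with LPS and 60.5, 63 and 63 CPM with LPS/siponimod. Although the groups did not overlap, the log2 FC was 0.09, with a 95% interval from -0.13 to 0.31 (quasi-likelihood adjusted p = 0.487).

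**Figure D2:**
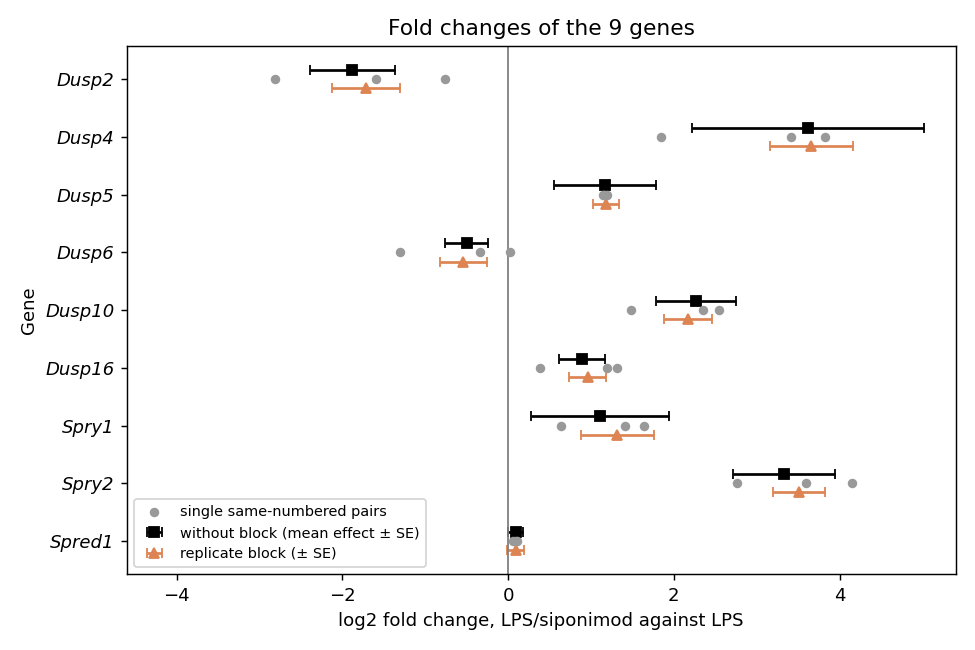
Log2 FC of LPS/siponimod against LPS for each gene without (black squares) and with (orange triangles) the replicate number as a block, with standard errors as bars, and the difference within each same-numbered pair (grey points). The standard error of Dusp5 falls from 0.61 to 0.16 and that of Dusp4 from 1.40 to 0.50 with the block, and Spred1 lies at 0.09 in both fits.

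Replicates of a group differed more for some of these genes than for others. LPS replicate 3 had the highest level of the LPS libraries for 6 of the 9 genes (Dusp2, Dusp4, Dusp5, Dusp16, Spry1 and Spry2), next to 40.8% of all genes tested. LPS/siponimod replicate 3 was the highest of its group for 4 of 9, next to 30.1% of all genes. After subtraction of the group means, Dusp4 and Dusp5 had a correlation of 0.94, Dusp5 and Spry1 of 0.87 and Spry1 and Spry2 of 0.98 over the 6 libraries, while that of Dusp10 with Dusp5 was -0.29 and with Spry2 0.09. These values are a description of 6 libraries, and the genes compared come from the same libraries. The genes that deviated upwards in the libraries numbered 3 did so together with the sums of oligodendrocyte and neuron markers and some of the astrocyte markers given above. Other markers of these lists did not follow. The part of those cells in these levels was not tested.

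**Figure D3:**
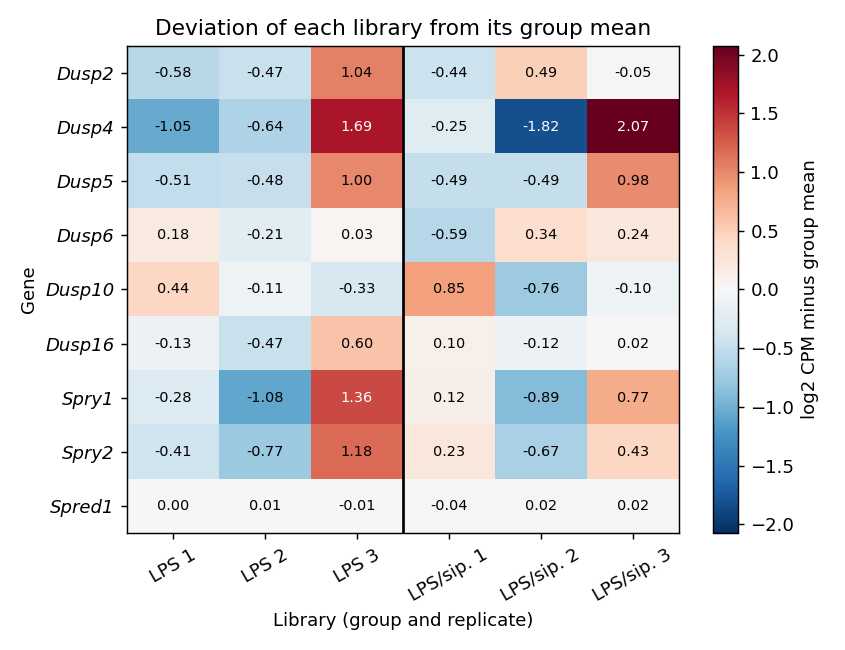
Log2 CPM of each gene in each library minus the mean of its group (colour and printed value; LPS/sip. stands for LPS/siponimod). Dusp4, Dusp5, Spry1 and Spry2 lie above the group mean in both libraries numbered 3, and Spred1 deviates by less than 0.05 anywhere.

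Of all genes tested, those with the pattern most like Spry2 by the Pearson correlation of log2 CPM over the 6 libraries were Csrnp1 (0.9987, log2 FC 2.16), Tent4b, Ak6_1, Frmd6 (log2 FC 2.88) and Gxylt1. A correlation of this kind above 0.95 was reached by 765 genes, so that such a likeness singles out no gene. For Dusp2 the most similar were Erlin2 (0.9967, log2 FC -0.49), Pggt1b, Atmin, Pdcd10 and Ada (log2 FC -1.60), with 237 genes above 0.95.

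To show the sequence in front of the genes that passed the test, the 250 bases upstream of the annotated start are printed 5′ to 3′ for the upregulated Spry2 and Dusp10, the downregulated Dusp2 and for Dusp5, which moved by nearly the same amount in each pair. They are RefSeq promoter sequences of the GRCr8 assembly, another build than the one used for mapping. Capitals mark matches on either strand to 1 of the motifs searched.
Spry2 (chr15:89111927-89112176, minus strand): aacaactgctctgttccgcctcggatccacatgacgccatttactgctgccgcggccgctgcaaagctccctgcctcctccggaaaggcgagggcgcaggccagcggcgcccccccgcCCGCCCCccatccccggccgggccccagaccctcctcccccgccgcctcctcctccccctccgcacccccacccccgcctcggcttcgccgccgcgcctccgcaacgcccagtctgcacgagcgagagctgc
Dusp10 (chr13:98145643-98145892, plus strand): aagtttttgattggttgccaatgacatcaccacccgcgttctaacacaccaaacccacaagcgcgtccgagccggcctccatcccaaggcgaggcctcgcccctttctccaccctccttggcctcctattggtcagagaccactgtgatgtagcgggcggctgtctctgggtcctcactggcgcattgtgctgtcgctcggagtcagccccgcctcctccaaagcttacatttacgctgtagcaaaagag
Dusp2 (chr3:135009386-135009635, plus strand): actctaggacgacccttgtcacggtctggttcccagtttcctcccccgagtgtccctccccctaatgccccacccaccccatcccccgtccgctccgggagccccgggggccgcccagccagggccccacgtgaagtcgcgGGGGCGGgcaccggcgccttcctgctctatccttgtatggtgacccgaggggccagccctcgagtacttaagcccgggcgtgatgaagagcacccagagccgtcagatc
Dusp5 (chr1:262543524-262543773, plus strand): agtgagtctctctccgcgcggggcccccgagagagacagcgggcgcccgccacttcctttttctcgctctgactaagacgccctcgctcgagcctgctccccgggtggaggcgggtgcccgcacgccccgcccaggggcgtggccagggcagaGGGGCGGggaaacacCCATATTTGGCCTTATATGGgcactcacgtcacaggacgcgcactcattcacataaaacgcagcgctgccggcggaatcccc
Searched were the cAMP response element (TGACGTCA), the AP-1 site (TGANTCA), the C/EBP-ATF response element (TGATGNAAT), the TATA box (TATAAA), the GC box (GGGGCGG), and by name the CArG box, which binds serum response factor, and the NF-kB site. Of the 9 genes, all but Dusp4 had such a sequence, Spry2 with an alternative start in addition. Dusp5 held a pair of adjoining CArG boxes (CCATATTTGG and CCTTATATGG) and a GC box. A CArG box was found in 1.5% of all 33465 windows of this length. The other capitals above are GC boxes, which 18.8% of all windows held. The cAMP response element (1.59% of all windows), the AP-1 site (6.34%), the C/EBP-ATF response element (0.944%), the NF-kB site (6.33%) and the TATA box (12.9%) had no match in the 9 windows of these genes, which says only that these letters are not in the 250 bases searched. A match describes letters in the sequence and not binding in these cells.

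Of 128 genes of the MAP kinase pathways that were listed by function, 104 were tested, of which 18 were upregulated and 14 downregulated (30.8%, next to 25.3% of all genes), with a median log2 FC of 0.01. With the replicate block 29 were upregulated and 18 downregulated, where 34% of all genes were called. Among others, the block added the upregulated Dusp3 and Mapk12 and the downregulated Rasgrp4 and Rps6ka2. Dusp3 and Mapk12 were also upregulated without the block by DESeq2 and the likelihood ratio test. With single libraries left out, the pathway genes upregulated ranged from 7 (without LPS replicate 2 or LPS/siponimod replicate 1) to 28 (without LPS replicate 3), as 5.16%, 6.22% and 30.3% of all genes were called. Of the 30 pathway genes chosen by list, only Dusp11, Mapk6, Map3k2, Rasgrp3, Rps6ka3, Flt1, Insr and Egr2 passed the thresholds in all 6 of these fits, and each of the others of these 30 lost its call in at least 1. Of the other MAP kinase phosphatases, Dusp8, directed at JNK and p38 like Dusp10, rose from 2.72, 1.01 and 1.83 CPM to 9.3, 5.56 and 4.99 CPM (log2 FC 1.83 ± 0.44 SE, adjusted p = 0.0285 in the quasi-likelihood test). Dusp7, which acts on ERK in the cytoplasm like Dusp6, was not a DEG (log2 FC -0.29, adjusted p = 0.0727), and Dusp9 was removed by the filter with 1, 6 and 3 counts against 41, 7 and 56 counts. Among 8 tested atypical dual-specificity phosphatases, Dusp11 was upregulated (log2 FC 1.18) and Dusp19 downregulated (-1.18). Dusp11 is known to act on RNA rather than on MAP kinases.

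The other Sprouty and Spred genes gave 3 tested genes, all with a positive log2 FC. Of these, 0 were DEGs by edgeR's quasi-likelihood test and 0 by DESeq2. In the quasi-likelihood test 0 had an unadjusted p under 0.05, next to 5234 of 11977 genes tested. Spry4, chosen after its values were seen, had its highest values in the libraries numbered 3, with 0.675, 0.908 and 5.7 CPM under LPS and 1.81, 5.13 and 11.8 CPM under LPS/siponimod. Its log2 FC was 1.36 ± 1.01 SE (adjusted p = 0.337 in the quasi-likelihood test) and passed the thresholds with the replicate block (log2 FC 1.63, adjusted p = 0.022). With the block, 2 of the 3 genes had an unadjusted p under 0.05, next to 6056 of 11977 genes tested. Without LPS replicate 3, all 3 did in the quasi-likelihood test, next to 6035 of 12242 genes tested. In that fit Spry4 was upregulated, where 30.3% of all genes were called. Of 14 tested other inhibitors of the Ras-ERK branch, Sh2b3 (log2 FC 0.64), an adaptor that restrains cytokine receptor signalling, and Rassf1 (0.85) were upregulated, and Ptpn7 (-0.88), a tyrosine phosphatase of blood cells that acts on ERK and p38, and the adaptor Dab2 (-0.90) were downregulated.

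Among 9 tested MAP kinases, Mapk6, an atypical kinase also called ERK3, was 3.46-fold higher (68.4 ± 11.6 against 237 ± 48.4 CPM, SD, n = 3 each, log2 FC 1.79, edgeR quasi-likelihood adjusted p = 0.00655), and Mapk14, which encodes p38 alpha, a substrate of several of the phosphatases above, was 2.36-fold lower (174 ± 53.6 against 73.5 ± 21.4 CPM, log2 FC -1.24, adjusted p = 0.0312). Mapk3, which encodes a kinase of the ERK branch, was not a DEG (log2 FC -0.38). Of 6 tested MAP kinase kinases 0 were DEGs by the quasi-likelihood test and 0 by DESeq2. An unadjusted p under 0.05 in the quasi-likelihood test was found for 2 of them, next to 5234 of 11977 genes tested. These were Map2k1 (log2 FC 0.52) and Map2k7 (0.35), whose fold changes were below 1.5. With the replicate block, Map2k3 was upregulated (log2 FC 0.89, adjusted p = 0.04 in the quasi-likelihood test). Of 13 MAP kinase kinase kinases, Map3k2 (log2 FC 0.99) and Map3k6 (1.98) were upregulated. With the replicate block, Map3k5 was upregulated as well (log2 FC 1.38) and Map3k8 downregulated (-0.99), and the likelihood ratio test without the block also called both.

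Of 14 tested genes of Ras and its activators, 3 were upregulated and 4 downregulated, next to 13.6% and 11.7% of all genes. Without LPS replicate 2, LPS/siponimod replicate 1 or LPS/siponimod replicate 3, Rasgrp3 was the only one called. In these fits 5.16%, 6.22% and 8.5% of all genes were called. Rasgrp3, a nucleotide exchange factor that loads Ras with GTP, was among the strongest, with 4.32, 3.66 and 4.28 CPM under LPS and 56.9, 26.1 and 58.7 CPM under LPS/siponimod (log2 FC 3.53 ± 0.35 SE, adjusted p = 0.00536 in the quasi-likelihood test). The LPS libraries were close together and all LPS/siponimod libraries far above them. The adaptor gene Gab2 (log2 FC 1.18) and the exchange factor gene Sos2 (0.69) rose too, but Sos2 lost its call with any single library left out. Grb2 (-1.07), Rras (-0.71) and Gab1 (-1.20) fell, as did Sos1 (-1.02), the close relative of Sos2. Among 10 kinases that MAP kinases activate, Rps6ka3 (log2 FC 0.88), Mapkapk3 (0.99) and Mknk1 (0.79) were upregulated and Rps6ka1 (-1.01) and Rps6ka4 (-0.89) downregulated.

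Receptor tyrosine kinases, on whose signalling Sprouty proteins act, had a median log2 FC of -0.65 over 9 tested genes. This is the value of the scarce Pdgfrb, with 36, 29 and 3 counts under LPS and 9, 21 and 20 counts under LPS/siponimod. Of these receptor genes, 33.3% were called, next to 25.3% of all genes. Flt1, a receptor for vascular endothelial growth factor (log2 FC -2.06), and Axl, a receptor for the clearance of dead cells (-1.84), were downregulated and Insr, the insulin receptor, was upregulated (2.14). Csf1r had 3050, 2340 and 931 CPM with LPS and 635, 1310 and 490 CPM with LPS/siponimod. The groups overlapped, as LPS replicate 3 was below LPS/siponimod replicate 2. Csf1r was not a DEG by the quasi-likelihood test without the block (log2 FC -1.38, adjusted p = 0.106) but was with it (log2 FC -1.33, adjusted p = 0.0375). Without the block, Csf1r was also downregulated by DESeq2 and the likelihood ratio test, and in the quasi-likelihood test without LPS replicate 3. Met, the receptor for hepatocyte growth factor, had 1.38, 0.519 and 3.68 CPM with LPS and 12.7, 3.67 and 25.7 CPM with LPS/siponimod. The groups overlapped barely, and each pair had more with LPS/siponimod. Met was not a DEG by the quasi-likelihood test without the block (log2 FC 2.91 ± 0.93 SE, adjusted p = 0.0604) but was upregulated with it (log2 FC 2.94, adjusted p = 0.00285). Without the block, Met was also upregulated by DESeq2 and the likelihood ratio test. The same was true of the quasi-likelihood test without LPS replicate 3 or without LPS/siponimod replicate 2.

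Genes commonly used as readouts of ERK-dependent transcription had a median log2 FC of 1.01 over 16 tested genes, of which 4 were upregulated and 2 downregulated (37.5%, next to 25.3% of all genes). The transcription factor genes Egr2 (log2 FC 2.88) and Fosl1 (3.28) and the early response gene Ier3 (3.23) had the smallest adjusted p-values among those upregulated, followed by Egr3 (2.14). Without LPS replicate 3 the log2 FC was 4.15 for Fosl1 and 4.26 for Ier3, and both were called in only 2 of the 6 fits with a library left out. Etv5 (-1.63), an ETS factor, and Ccnd1 (-1.53), the cyclin D1 gene, fell. Egr1, by contrast, had nearly the same level in both groups (log2 FC -0.07, standard error 0.18). In the list as a whole, 9 genes were upregulated and 2 downregulated with the replicate block, where 34% of all genes were called. Without LPS replicate 1, LPS replicate 2, LPS/siponimod replicate 1 or LPS/siponimod replicate 3, Egr2 was the only gene of the list called. In these fits 13.9%, 5.16%, 6.22% and 8.5% of all genes were called.

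**Figure D4:**
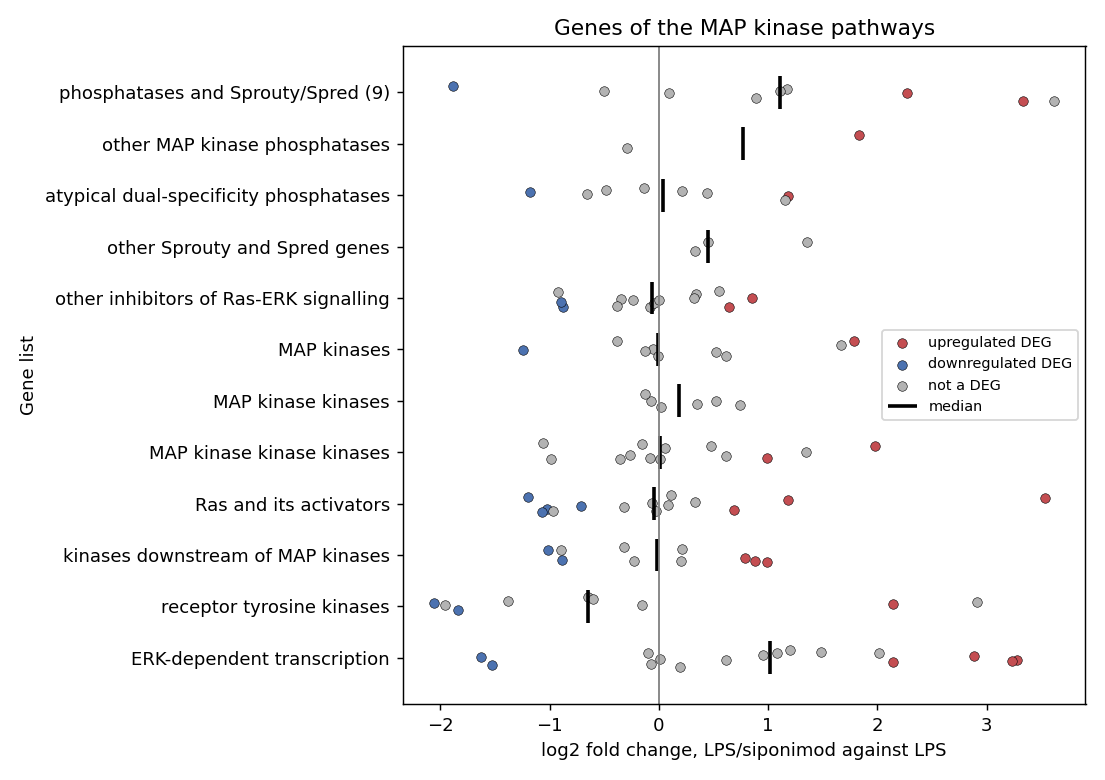
Log2 FC of LPS/siponimod against LPS of every tested gene in each list (points, red for upregulated and blue for downregulated DEGs, grey for others) with the median of the list as a black bar. The 9 phosphatase, Sprouty and Spred genes have a median of 1.11 (between 0.63 and 1.87 with single libraries left out), receptor tyrosine kinases of -0.65 and readouts of ERK-dependent transcription of 1.01.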

How the data were processed

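Bulk RNA libraries were sequenced as single-end reads, which the authors demultiplexed and adapter-trimmed with bcl2fastq (version 2.20.0.422), quality-trimmed and mapped to the rat genome (mRatBN7.2) in the CLC Genomics Workbench. The deposited values are unnormalized total counts per gene, in 1 table per library. How strand and reads with several matching genes were treated is not given in the sources used here, so that values of related or overlapping genes are uncertain. In 1 table, 1 row without a name was left out, which held 0 counts.

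The tools were edgeR 4.0.16, limma 3.58.1 and DESeq2 1.42.0 under R 4.3.3. Genes were kept by filterByExpr (minimum count 10, minimum total 15) and scaled by TMM, 11977 genes were tested with the quasi-likelihood test, with Benjamini-Hochberg adjustment over all of them. The standard error is the log2 FC divided by the square root of the F statistic, and pairs were compared on log2 CPM (prior count 2). With 3 against 3 libraries an exact permutation test on 1 gene cannot go below p = 0.1. Libraries with 1 number were treated as pairs because, after centring, their correlation over genes was 0.42, 0.545 and 0.611. For other combinations it was -0.534 to 0.086, and no source states the pairing. The pairing thus rests on the same counts that were tested. Standard errors and adjusted p-values with the replicate block depend on this choice.

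The genes, lists and tests were chosen with earlier results of these data known. Named are the 9 genes, of each pathway list up to 3 DEGs per direction with the smallest adjusted p, the leading gene of each marker list and the 5 genes most correlated with Spry2 and Dusp2. Itgam, Aif1, Cx3cr1, Cd68, Pecam1, Col1a1, Snap25, Map2k3, Met, Sos1, Egr3, Egr1, Dusp7, Dusp9, Mapk3, Map2k1, Map2k7, Csf1r as a receptor, Spry4 and Olig1 were added after their values were seen. The same holds for Dusp3, Mapk12, Map3k5, Map3k8, Rasgrp4, Rps6ka2, Pdgfrb, Sox9, Slc1a2, Gfap and Aldh1l1. On simulated counts (11977 genes), the quasi-likelihood test recovered 9 of 66 genes changed 2-fold, 42 of 67 changed 4-fold and 57 of 67 changed 8-fold. There were 11 false calls. Only these genes were changed in the simulation, a far smaller share than the 25.3% of genes called in the data. The adjustment for multiple testing was therefore stricter there, and the share recovered does not carry over to the data. Not every gene of the lists is reported here by name.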

Additional observations from a re-analysis of the deposited data

How the results depend on the processing

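RLE normalization, DESeq2, the likelihood ratio test, limma-voom, no filter beyond 1 count, a mean of at least 1 CPM, the replicate block and the omission of each library in turn were tried. No log2 FC of the 9 genes or of the 30 pathway genes chosen by list changed its sign. Of the 9 genes, 4 were upregulated by DESeq2, 4 by the likelihood ratio test and 5 with the replicate block, where 32.5%, 29.8% and 34% of all genes were called in either direction. The block also gave 29 upregulated pathway genes and changed the calls of Dusp4, Dusp5 and Dusp16. With single libraries left out, between 0 and 4 of the 9 genes were upregulated and between 0 and 1 downregulated, and between 7 and 28 pathway genes were upregulated and between 1 and 18 downregulated. The highest of these counts came without LPS replicate 3, where 30.3% of all genes were called. The cause was not tested. The quasi-likelihood test of edgeR called 0 of the 9 genes without LPS replicate 2, LPS/siponimod replicate 1 or LPS/siponimod replicate 3. In these fits 5.16%, 6.22% and 8.5% of all genes were called. An unadjusted p under 0.05 was found there for 4, 3 and 4 of the 9 genes. Among all genes tested it was found for 3861 of 12613, 3673 of 12583 and 4066 of 12178. Spry1 was removed by the filter on mean CPM. At this depth 1 count was worth between 0.0215 and 0.027 CPM, which limits the precision of Dusp4 and Spry1.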
